A study of Mus musculus with 2 samples.

Results

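The 6 genes described here act in the synthesis and turnover of polyunsaturated fatty acids, and were chosen by name from the 31053 genes of the count matrices. They are 3 desaturase genes (Fads1, Fads2 and Fads3), 2 elongase genes (Elovl2 and Elovl5) and the thioesterase gene Acot13. They were grouped together with earlier results of these libraries in view, so the differences between the libraries in these genes are given as a description. The cells came from adult C57BL/6 mouse testis, and tetraploid germ cells were sorted by flow cytometry, whereas the sample titles speak of whole testis. One library was WT (wild type) and the other was labelled Zfp541-/-, which names a loss of the zinc finger protein gene Zfp541. The number of animals per library and the making of the allele are not stated in the sources used here. There was 1 library per genotype and no replicate, so no test was run and no difference has a replicate check.

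Long polyunsaturated fatty acids such as arachidonic and docosahexaenoic acid are built from dietary precursors by turns of desaturation, which adds a double bond, and elongation, which adds carbon atoms. Fads2 encodes the desaturase of the first step and Fads1 the desaturase that acts after the first elongation. The substrates of Fads3 are less settled, and they include sphingoid bases. Elovl5 encodes the elongase of the shorter polyunsaturated chains and Elovl2 that of the longer ones. Acot13 encodes a small thioesterase that frees long-chain fatty acids from coenzyme A and is found with mitochondria. Testis and sperm membranes are rich in such fatty acids, and loss of Elovl2 in mice is known to stop spermatogenesis.

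By the gene annotation of GRCm38, the build that the label mm10 names, the 3 desaturase genes lie side by side on chromosome 19. Fads3 runs from 10041569 to 10060110 on the plus strand, Fads2 from 10062765 to 10101746 on the minus strand and Fads1 from 10182888 to 10196877 on the plus strand. Acot13 lies on chromosome 13 from 24817948 to 24831540 and Elovl2 on the same chromosome from 41182381 to 41220405, both on the minus strand. Elovl5 lies on chromosome 9 from 77917364 to 77984519 on the plus strand. The microRNA gene Mir6993 overlaps Fads1 on the same strand. None of the other 5 genes overlaps an annotated gene on either strand.

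RefSeq promoter windows of GRCm38.p6, from 250 bases before to 50 after the gene start, matched 4 of the 6 genes (Fads2, Fads3, Elovl2 and Elovl5). The windows of the 2 elongase genes are shown, up to 20 bases after the start, because these genes had opposite profiles along spermatogenesis. Capitals mark matches on either strand to the motifs CCAAT (the core bound by NF-Y), TGACGTCA (the cAMP response element), CACGTG (an E-box), GGGCGG (a GC box), AACTG (the MYB core) and TCACNCCAC (a sterol response element). The Elovl2 stretch is chr13:41220384-41220653 on the minus strand and the Elovl5 stretch is chr9:77917115-77917384 on the plus strand.
Elovl2: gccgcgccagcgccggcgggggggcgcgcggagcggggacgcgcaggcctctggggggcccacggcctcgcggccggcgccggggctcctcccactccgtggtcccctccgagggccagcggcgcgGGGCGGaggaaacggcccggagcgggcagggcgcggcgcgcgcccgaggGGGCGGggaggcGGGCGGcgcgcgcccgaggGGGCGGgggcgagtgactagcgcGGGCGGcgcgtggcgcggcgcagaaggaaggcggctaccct
Elovl5: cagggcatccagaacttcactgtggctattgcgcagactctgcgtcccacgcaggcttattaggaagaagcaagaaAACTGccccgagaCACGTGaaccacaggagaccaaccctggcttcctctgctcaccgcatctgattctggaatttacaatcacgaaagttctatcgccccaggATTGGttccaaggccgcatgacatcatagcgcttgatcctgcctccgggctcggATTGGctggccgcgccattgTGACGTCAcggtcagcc

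In the full window of 300 bases, from the first of its 2 annotated starts, Elovl2 held 56 CpG dinucleotides and 84.7% G or C, and Elovl5 held 20 and 57.7%, where the medians over 32851 such windows were 7 and 52.7%. Elovl2 had 5 matches to the GC box and none to the other motifs, and the window of its second start held 45 CpG and no match. Elovl5 had 2 matches to the NF-Y core and 1 each to the cAMP response element, the E-box and the MYB core. The GC box was found in 35.7% of all windows, the NF-Y core in 37.4%, the MYB core in 44.8%, the E-box in 7.15%, the cAMP response element in 1.79% and the sterol response element in 1.24%. Fads2 had 1 match, to the GC box, and Fads3 had 2 each to the NF-Y core, the GC box and the MYB core. These matches describe letters in a window and say nothing of binding.

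The WT library held 8420 annotated cells with 108612781 unique molecular identifiers (UMIs, each one counted RNA molecule), and the library labelled Zfp541-/- held 8833 with 119675250. The authors' stage names ran over 15 stages from differentiated spermatogonia (Diff.Spg1 to Diff.Spg3) through preleptotene (pre.L), leptotene (L), zygotene (Z), early, mid and late pachytene (eP, mP, lP), diplotene (D) and the first meiotic division (MI) to round (RS.1 to RS.3) and elongated (ES) spermatids. Stages with under 50 cells in a library were not compared. These were the 6 WT stages from spermatogonia to zygotene, with 122 cells together, and diplotene in the other library, with 13 cells, so both libraries could be set side by side only in pachytene. Zfp541 itself, counted near the end of its transcript, was at 28.1 counts per 1000000 UMIs (CPM) in WT mid pachytene and 81.9 CPM in the library labelled Zfp541-/-. The sources used here do not state which part of the gene was removed, so this level does not check the label. Depth within a stage was higher in that library, with a median of 18665 against 7945 UMIs in mid pachytene and 23690 against 9210 in late pachytene, and the median share of mitochondrial UMIs was higher there too (3.08% against 1.48% in mid pachytene). Summed over mid and late pachytene separately, the 15 pachytene markers gave 12304 to 13751 CPM in WT and 11400 to 12911 CPM in the library labelled Zfp541-/-. The 10 markers of diplotene and division gave 1350 to 1380 CPM in WT and 698.7 to 808.9 CPM in the other library. The 10 markers of elongating spermatids gave 235.4 to 298.2 CPM in WT and 1.30 to 1.37 CPM in the other library. Among the 13 Sertoli markers, 4 to 6 were at 0 in WT and 1 to 4 in the library labelled Zfp541-/-, with Fshr at 0 in both and sums of 9.65 to 14.1 and 15.1 to 33.9 CPM. Of the latter sums, Ctsl, a protease gene that many cell types use, gave 28.0 CPM in mid and 10.1 CPM in late pachytene. The 7 Leydig markers summed to at most 2.38 CPM and the 7 macrophage markers to at most 1.48 CPM in either library. The part of these differences in the results below was not tested.

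Fads1, the desaturase of the later step, was close to absent from WT cells from mid pachytene to RS.3. It was abundant in pachytene cells of the library labelled Zfp541-/-. Its 0 in WT early pachytene rested on only 899377 UMIs of that stage, against 9719740 in WT mid pachytene. In WT it was at 0 CPM in early pachytene, 0.617 in mid pachytene, 0.627 in late pachytene, 0.254 in diplotene, 0.235 in the first division, 0.318 in RS.1, 0.107 in RS.2 and 0 in RS.3 and ES. In the library labelled Zfp541-/- it was at 16.9 CPM in Diff.Spg1, 11.04 in Diff.Spg2, 19.4 in Diff.Spg3, 18.7 in preleptotene, 10.6 in leptotene, 5.22 in zygotene, 20.7 in early pachytene, 74.7 in mid pachytene and 91.5 in late pachytene. The 4 stages from Diff.Spg1 to preleptotene had intervals that overlapped, though the direct step from Diff.Spg2 to Diff.Spg3 was a log2 difference of 0.80 (0.19 to 1.45). Zygotene was the lowest, and each step from zygotene to late pachytene lay outside the counting intervals of the stage before.

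Counts at a given level differ in precision with the depth of the stage, and each interval here is an exact Poisson 95% interval for counting error only. It leaves out the spread between mice and between libraries. In mid pachytene the Fads1 level rested on 6 UMIs in 1207 WT cells (interval 0.227 to 1.34 CPM) and on 3646 UMIs in 2501 cells labelled Zfp541-/- (72.3 to 77.2 CPM). On the log2 scale the ratio to WT was 6.80 (5.80 to 8.37), with 0.5 counts added to each sum and an exact conditional binomial interval. In late pachytene 5 WT UMIs stood against 4289, a log2 ratio of 7.05 (5.97 to 8.81). Because the genes were chosen on such differences, these ratios carry no test.

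Within early pachytene the 2 deposited clusters were compared one by one, since the libraries may mix them differently. Each had a spermatogonium marker, Sohlh2, among its 10 leading genes. No early, mid or late pachytene cluster had a pachytene marker among its 10 leading genes. Fads1 had 0 UMIs in the 75 WT cells of cluster 12 and 86 UMIs, or 17.7 CPM, in 713 cells of the library labelled Zfp541-/-. That was 1.77-fold higher against the 3 counts that a 0 allows, and the exact interval of the log2 ratio began at 0.49. In cluster 16 Fads1 had 0 UMIs in 155 WT cells and 92 UMIs, or 24.6 CPM, in 451 cells. That was 4.93-fold higher against 3 counts, with an interval of the log2 ratio that began at 1.97. With 0 WT UMIs the fitted ratio in cluster 12 moved with the counts used, from 3.41 on the log2 scale to 1.84 with every cell thinned. The difference was therefore already present at the first stage where both libraries could be compared, with a bound of under 2-fold in cluster 12.

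Acot13, the thioesterase gene, was also far higher in pachytene cells of the library labelled Zfp541-/-, and its levels before pachytene followed another order than those of Fads1. In WT it was at 5.56 CPM in early pachytene, 1.54 in mid pachytene, 1.75 in late pachytene, 1.52 in diplotene, 0.883 in the first division, 2.07 in RS.1, 1.18 in RS.2, 0.90 in RS.3 and 0 in ES. In the library labelled Zfp541-/- it was at 73.8 CPM in Diff.Spg1, 29.3 in Diff.Spg2, 15.0 in Diff.Spg3, 39.6 in preleptotene, 75.7 in leptotene, 32.9 in zygotene, 63.7 in early pachytene, 254.3 in mid pachytene and 307.5 in late pachytene. Diff.Spg3 was the lowest stage, and Diff.Spg1 and leptotene had overlapping intervals, with mid and late pachytene above every earlier stage. Acot13 in mid pachytene stood at 15 WT UMIs against 12408, a log2 ratio of 7.32 (6.64 to 8.20), and in late pachytene at 14 against 14410, a log2 ratio of 7.40 (6.71 to 8.32). In early pachytene it had 2 WT UMIs against 216 in cluster 12 (log2 ratio 2.41, 0.86 to 5.79) and 3 against 331 in cluster 16 (3.93, 2.59 to 6.43). These few WT UMIs made the size unsure. With cells thinned to 3000 UMIs, which kept only 33 WT cells, the ratio in cluster 12 was 1.54. With pseudotime bins at equal weight that in cluster 16 was 4.99.

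**Figure D1:**
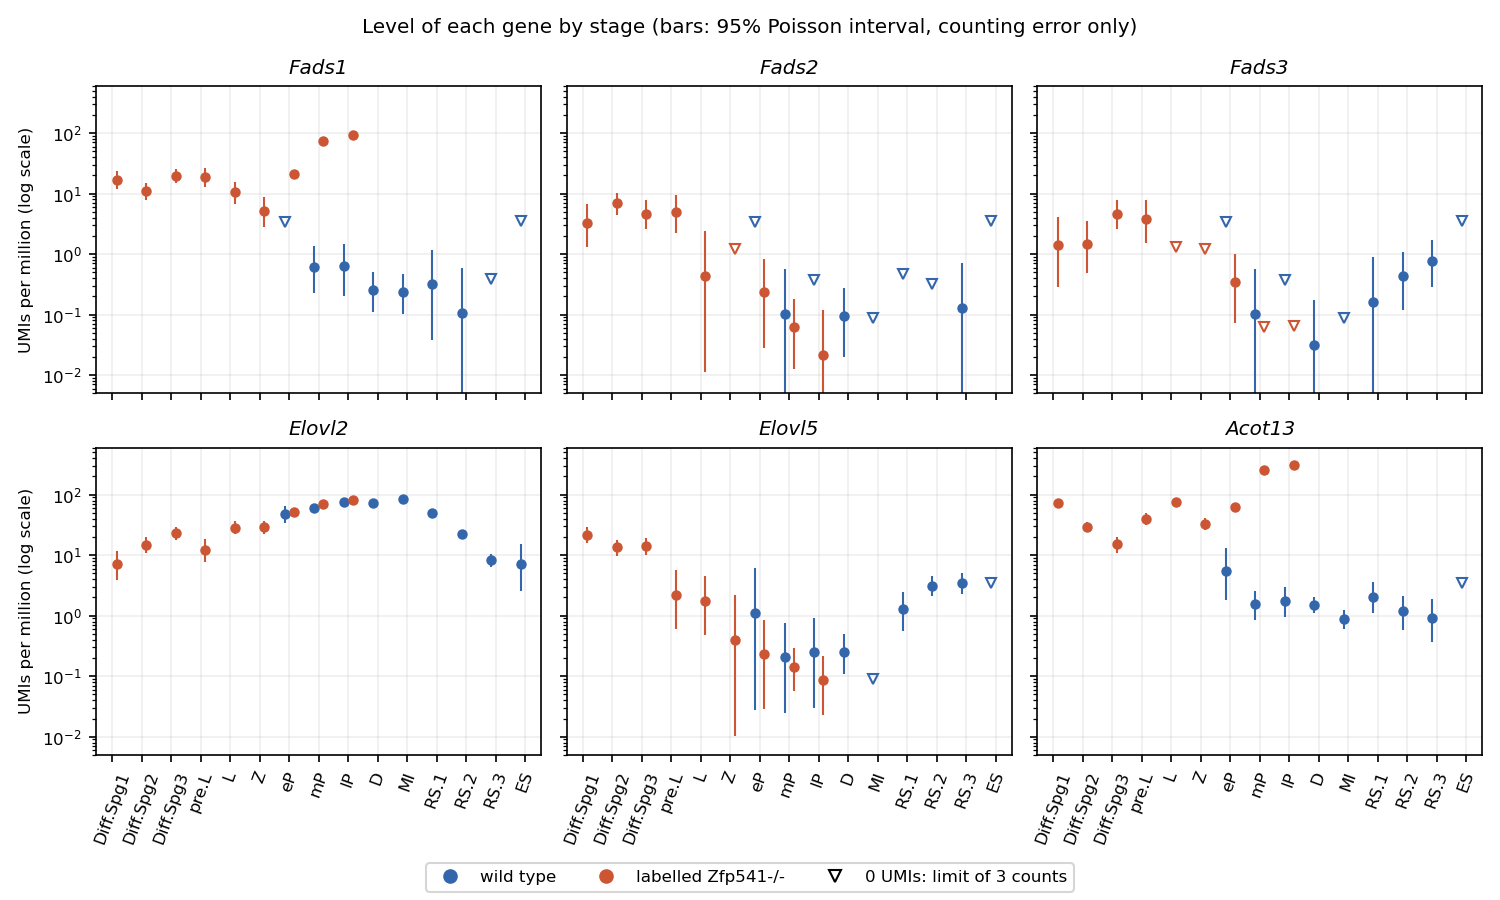
Level of each of the 6 genes (CPM, log axis) by authors' stage in the WT library (blue) and the library labelled Zfp541-/- (orange); bars are 95% Poisson intervals for counting error, triangles mark 0 UMIs at the level of 3 counts, and groups under 50 cells are left out. Fads1 and Acot13 differ between the libraries in pachytene, at 74.7 against 0.617 CPM and 254.3 against 1.54 CPM in mid pachytene, while the Elovl2 points lie close together.

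Spermatogonia and early meiotic cells of the WT library were too few for the same comparison stage by stage. Pooled over the 6 stages from spermatogonia to zygotene, the 122 WT cells gave 4 Fads1 UMIs, or 12.4 CPM (3.37 to 31.7), and the 3210 cells of the library labelled Zfp541-/- gave 202 UMIs, or 13.4 CPM (11.6 to 15.4). Acot13 was at 21.7 CPM (8.71 to 44.6) in the WT pool and 41.6 CPM (38.4 to 45.0) in the other. The intervals overlapped for both genes, and the pools mix the stages in different shares. At this depth no difference was detectable before pachytene, and the WT intervals span most of the levels seen in the other library's single stages.

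Of the 6 genes, 3 (Fads1, Elovl2 and Acot13) reached 10 CPM in at least 1 library in pachytene, and Fads1 and Acot13 did so only through the library labelled Zfp541-/-. In mid pachytene 2 of these 3 genes were at least 2-fold higher in that library, where 15.0% of all 7701 genes that reached 10 CPM in either library were. In late pachytene it was again 2 of 3, against 17.4% of 7635 genes. Cluster 12 gave 2 of 3 against 14.4% of genes, and cluster 16 gave 2 of 3 against 20.4%. Since this contrast chose the genes, nothing is read from these counts. Both genes also passed a 16-fold difference in mid and late pachytene, which 2.26% and 3.69% of all genes did. In mid pachytene 41 genes had a higher ratio than Acot13 and 49 a higher ratio than Fads1.

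The difference held in each cluster of pachytene cells. In cluster 22, a late pachytene cluster with 234 WT and 102 other cells, Fads1 was at 0.932 CPM in WT and 43.3 in the library labelled Zfp541-/-, and Acot13 at 1.86 and 414.0. In cluster 5, which held 107 WT and 884 other late pachytene cells, Fads1 was at 0 and 104.6 CPM and Acot13 at 1.98 and 277.9. The libraries therefore held the late pachytene clusters in different shares. Both genes were higher in the library labelled Zfp541-/- in every one of these 3 clusters. The ratio of the genes to each other varied, with Acot13 highest and Fads1 lowest in cluster 22 among the late pachytene clusters of that library. In the mid pachytene cluster 2, with both libraries pooled, Acot13 was one of the 10 genes with the highest fold against other cells. Whether its level helped to set the cluster was not tested. Acot13 in cluster 2 was at 0.972 and 314.4 CPM, and in the other 3 mid pachytene clusters it lay between 171.8 and 252.7 CPM in the library labelled Zfp541-/- and at most at 2.94 CPM in WT.

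**Figure D2:**
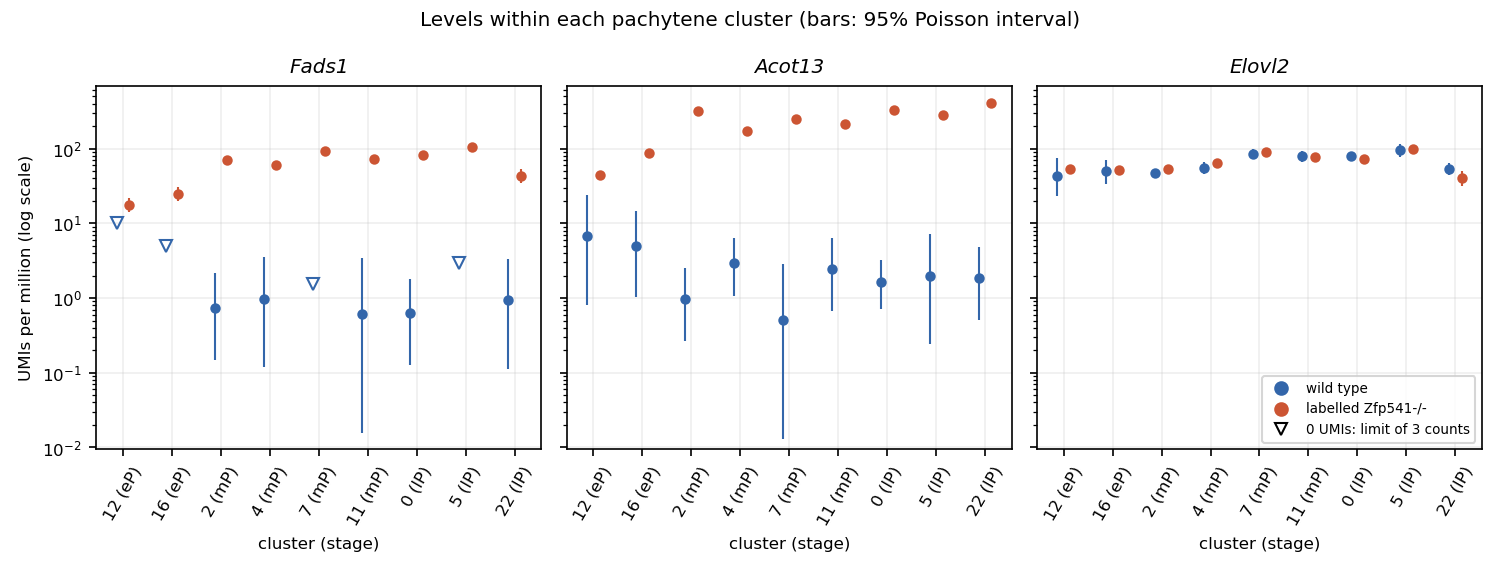
Levels of Fads1, Acot13 and Elovl2 (CPM, log axis) within the 9 deposited pachytene clusters, WT in blue and the library labelled Zfp541-/- in orange, with 95% Poisson intervals and triangles for 0 UMIs at 3 counts. Fads1 and Acot13 are higher in the library labelled Zfp541-/- in all 9 clusters, and the Elovl2 points of the libraries lie close together in each.

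Cell by cell, Acot13 was found in nearly all late pachytene cells of the library labelled Zfp541-/-. At full depth 99.5% of 1945 late pachytene cells had an Acot13 UMI there and 1.69% of 827 WT cells did, and for Fads1 the shares were 83.7% and 0.605%. The median late pachytene cell of that library held 7 Acot13 UMIs, 2 Fads1 UMIs and 2 Elovl2 UMIs. Both Fads1 and Acot13 were found in 83.4% of these cells and in none of the 827 WT cells. In mid pachytene both were found in 68.9% of the cells of the library labelled Zfp541-/- and neither in 1.80%. No WT late pachytene cell held more than 1 UMI of either gene.

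Since depth differed, every cell with at least 3000 UMIs was also thinned to 3000 UMIs, and shallower cells were left out of these shares. Acot13 was then found in 60.1% of late pachytene cells of the library labelled Zfp541-/- (exact Clopper-Pearson 95% interval 57.9 to 62.3) and in 0.242% of WT cells (0.0294 to 0.873). Fads1 was found in 22.6% (20.8 to 24.6) and 0.242% (0.0294 to 0.873). In mid pachytene the thinned shares were 51.2% and 0.50% for Acot13 and 19.4% and 0.167% for Fads1. WT spermatids, the latest cells of that library, gave a level for comparison. At full depth and a median of 14311 UMIs, 0.206% of them had a Fads1 UMI and 2.13% an Acot13 UMI, and thinned to 3000 UMIs the shares were 0.0689% (0.00174 to 0.383) and 0.482% (0.194 to 0.991). The thinned WT shares of mid and late pachytene had intervals that overlapped these for both genes. Whether the few WT UMIs of mid and late pachytene are free RNA or expression cannot be told from these shares. In WT early pachytene Acot13 was at 5.56 CPM (1.81 to 12.97) on 5 UMIs, and in WT spermatids at 1.28 CPM (0.87 to 1.82). The WT difference from early to mid pachytene was -1.94 on the log2 scale (-3.38 to -0.03), so Acot13 was not shown to be at that level in early pachytene.

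**Figure D3:**
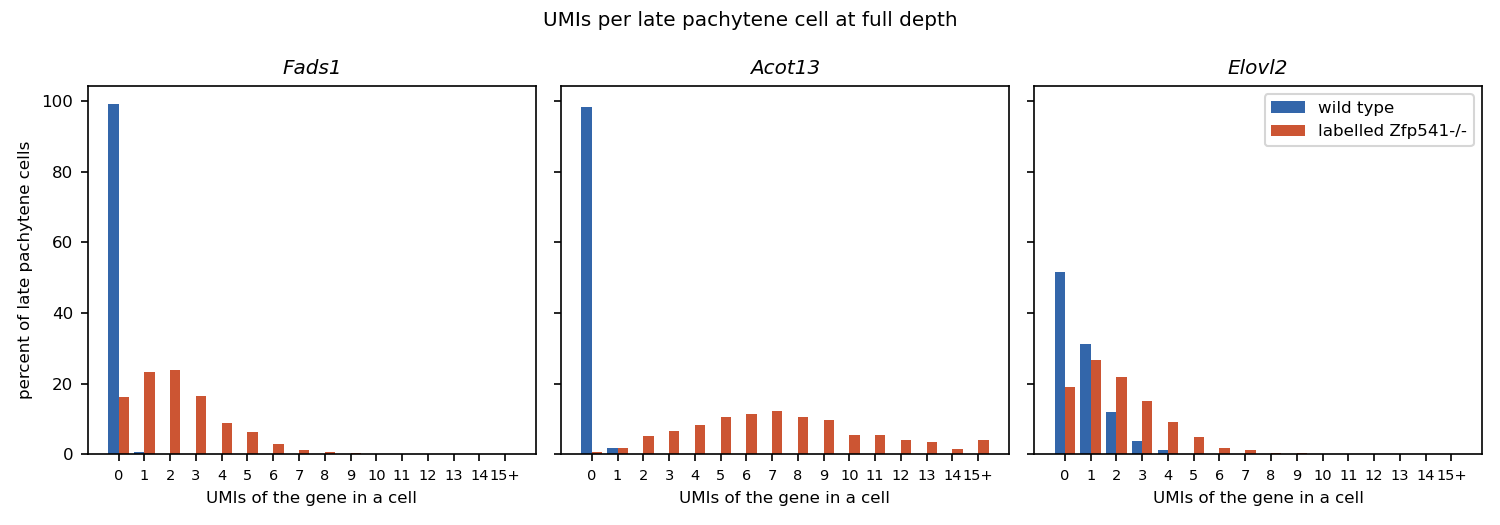
Percent of late pachytene cells (y) by the number of UMIs of Fads1, Acot13 or Elovl2 in the cell at full depth (x), WT (blue, 827 cells) and the library labelled Zfp541-/- (orange, 1945 cells). Acot13 peaks at 7 UMIs in the library labelled Zfp541-/-, whereas 98.3% of WT cells have 0, and for Elovl2 the bars of both libraries overlap at 0 to 4 UMIs.

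Along the authors' pseudotime, an order score with no unit, the cells of the library labelled Zfp541-/- showed when the levels were reached. Over 27 bins of equal width, Fads1 was lowest in the fourth bin, at 5.95 CPM among mainly leptotene cells, and reached 86.8 CPM by the eleventh, among mainly mid pachytene cells. Between that bin and the fifteenth it lay between 86.5 and 94.8 CPM, and it was at 74.3 CPM in the last bin with over 50 cells. Acot13 was lowest in the second bin, at 18.1 CPM among mainly Diff.Spg3 cells, and went from 61.9 CPM in the sixth bin to 349.3 CPM in the last. Fads1 thus had its highest values from mid to late pachytene, and Acot13 in the latest pachytene cells.

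Elovl2, the elongase of the longest chains, was found in every stage with at least 50 cells. These stages ran from early pachytene to ES in WT and from Diff.Spg1 to late pachytene in the library labelled Zfp541-/-. In WT it was at 47.8 CPM in early pachytene, 61.4 in mid pachytene, 74.8 in late pachytene, 74.0 in diplotene, 83.8 in the first division, 49.4 in RS.1, 22.3 in RS.2, 8.23 in RS.3 and 7.06 in ES. In the library labelled Zfp541-/- it was at 7.05 CPM in Diff.Spg1, 14.9 in Diff.Spg2, 23.1 in Diff.Spg3, 12.1 in preleptotene, 28.6 in leptotene, 28.9 in zygotene, 52.0 in early pachytene, 69.5 in mid pachytene and 83.0 in late pachytene. By stage, the WT level was highest in the first division. Late pachytene and diplotene did not differ beyond their intervals, and each step from the first division to RS.3 lay outside them. Diplotene clusters 1 and 3 were higher still, at 95.04 CPM (88.04 to 102.5) and 99.0 CPM (91.9 to 106.5). Diplotene cluster 9 was at 54.5 CPM. Along pseudotime, the highest WT bin was bin 19, among mainly diplotene cells, at 89.5 CPM (80.3 to 99.6). That interval overlapped the one of bin 24, among mainly first division cells, at 84.5 CPM (79.3 to 89.9). The stage levels therefore do not place the peak in the first division. From the first division to RS.3 the log2 difference of Elovl2 was -3.34 (-3.73 to -2.99).

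Between the libraries Elovl2 was nearly level in pachytene. Its log2 ratio was 0.18 (0.05 to 0.31) in mid pachytene, 0.15 (0.02 to 0.28) in late pachytene, 0.22 (-0.53 to 1.20) in cluster 12 and 0.01 (-0.53 to 0.64) in cluster 16. The medians over all measured genes in the same order were 0.15, 0.11, 0.10 and 0.28, so the Elovl2 ratios lay within 0.28 of the median gene. Within the 9 clusters the log2 ratio ran from -0.41 in cluster 22 to 0.22 in clusters 4 and 12. The sign in late pachytene depended on how clusters were weighted, at -0.12 with the 3 clusters at equal weight. Scaling to the median of ratios over all genes moved every ratio in cluster 16 by -0.13 and put Elovl2 there at -0.11. Per mid pachytene cell there were 0.495 Elovl2 UMIs in WT and 1.36 in the other library, a difference that went with the depth of the cells.

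Elovl5, the elongase of the shorter chains, had the opposite order. In the library labelled Zfp541-/- it was at 21.6 CPM in Diff.Spg1, 13.4 in Diff.Spg2 and 14.04 in Diff.Spg3, then at 2.20 in preleptotene, 1.76 in leptotene and 0.401 in zygotene, and at 0.233, 0.143 and 0.0853 in early, mid and late pachytene. The step from Diff.Spg3 to preleptotene was a log2 difference of -2.52 (-4.61 to -1.21). In WT it was at 0.206 CPM in mid pachytene, 0.251 in late pachytene, 0.254 in diplotene and 0 in the first division, where 0 of 33993299 UMIs allows up to 0.0883 CPM. It was then at 1.27 CPM in RS.1, 3.11 in RS.2 and 3.47 in RS.3, on 8, 29 and 27 UMIs. The RS.2 and RS.3 intervals overlapped each other and lay above those of diplotene and the first division. Over all spermatids 4.33% of cells had an Elovl5 UMI (3.34 to 5.50), and in the first division 0 of 2344 did, which allows up to 0.128%, at medians of 14311 and 13674 UMIs. In pachytene Elovl5 was below 10 CPM in both libraries, and no difference between them was detectable on 2 against 7 UMIs in mid pachytene and 2 against 4 in late pachytene.

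Fads2, the desaturase of the first step, and Fads3 had their highest levels, all below 10 CPM, in spermatogonia and preleptotene cells. In the library labelled Zfp541-/- Fads2 was at 3.29 CPM in Diff.Spg1, 6.86 in Diff.Spg2, 4.68 in Diff.Spg3 and 4.95 in preleptotene, then at 0.44 in leptotene, 0 in zygotene, and 0.233, 0.0615 and 0.0213 in early, mid and late pachytene. Fads3 was at 1.41, 1.49, 4.68 and 3.85 CPM in the same first 4 stages, at 0 in leptotene and zygotene, at 0.35 in early pachytene and at 0 in mid and late pachytene. In Diff.Spg2 5.54% of cells had a Fads2 UMI (3.55 to 8.20) at a median of 7722 UMIs, and in late pachytene of the same library 0.0514% did (0.0013 to 0.286) at a median of 23690. For Fads3 the share was 2.41% in Diff.Spg3 (1.29 to 4.08) at a median of 5210 UMIs and 0 of 1945 late pachytene cells, which allows up to 0.154%. The shares thus differed between stages beyond counting error, with the deeper cells lower. WT pachytene cells held at most 1 UMI of either gene at each stage. The 0 UMIs of Fads3 among 46868451 UMIs in late pachytene of the library labelled Zfp541-/- allow up to 0.064 CPM. In WT spermatids Fads3 had 11 UMIs, or 0.454 CPM (0.227 to 0.813), against 1 UMI in diplotene and the first division together, in 0.755% (0.378 to 1.35) and 0.0218% of cells at medians of 14311 and 12658 UMIs. Neither gene reached 10 CPM in any stage with 50 cells. The first-step desaturase and the later-step desaturase therefore differed in the library labelled Zfp541-/-, with Fads2 at 3 UMIs and Fads1 at 3646 in the same mid pachytene cells.

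Across the 18 groups of stage and library with at least 50 cells, the profiles of Fads1 and Acot13 had a Pearson correlation of 0.95 on log2(CPM + 1), Fads2 and Fads3 one of 0.89, and Elovl2 and Elovl5 one of -0.63. Groups of a library share its preparation and depth, so these values describe likeness only. All groups before pachytene came from the library labelled Zfp541-/-, and all groups after it from WT. The difference between the libraries on which Fads1 and Acot13 were chosen enters their correlation and the genes listed as most like them, so nothing is read from these. Among 13247 genes the most like Fads1 were Ankrd29 (0.99), Grk5 (0.96) and Exoc6 (0.96), and the most like Acot13 were Ankrd29 (0.97), Tpm1 (0.97) and Tnfaip8 (0.96). Ankrd29 was at 0.412 CPM in WT mid pachytene and 56.5 CPM in the library labelled Zfp541-/-. Elovl2 was most like 4930509G22Rik, Cdc42ep3 and 1700052K11Rik (0.94 each). Elovl5 was most like Igsf3 (0.97), Card10 (0.96) and Il13ra1 (0.95). Fads2, which peaked at 6.86 CPM, was most like Acy1, Slc27a2 and Slc7a8 (0.99 each), and Fads3, which peaked at 4.68 CPM, was most like Hist3h2ba (0.96), Hist1h2ai (0.94) and Zc3hav1 (0.94).

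The measured genes beside Fads1 and Acot13 did not show differences of that size. Tdp2, a DNA repair gene whose start lies 0.139 kb from that of Acot13, had a mid pachytene level of 32.2 CPM in WT and 54.6 CPM in the other library, with a log2 ratio of 0.76 (0.59 to 0.94). Mrs2, a mitochondrial magnesium channel gene 189 kb away, had 1.27, and Gmnn, an inhibitor of DNA replication licensing, had -0.60. D130043K22Rik, Gpld1, Aldh5a1 and Ripor2 were below 10 CPM in both libraries. Near Fads1, Tmem258 was at 716.4 and 673.0 CPM (log2 ratio -0.09) and Fth1, the ferritin heavy chain, at 1351 and 860.1 CPM (-0.65). Fen1, Myrf, Dagla, Rab3il1, Best1 and Syt7 stayed below 10 CPM in both libraries, as did Fads2 and Fads3. Ratios at such levels were not read, for example with Best1 at 9 WT UMIs against 0 and Fen1 at 8 against 130 in mid pachytene.

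Around Elovl2 the neighbours differed between the libraries in both directions. Smim13 had a log2 ratio of -1.26 in mid and -2.11 in late pachytene, Tmem170b had 1.93 and 3.24, and Mak, a kinase gene of male germ cells, had -0.18 and -0.59. Nedd9, Gcm2 and Sycp2l had at most 11 UMIs in a library. Around Elovl5, Gclc, a subunit of the first enzyme of glutathione synthesis, had 0.63 in mid pachytene, Fbxo9 -0.28 and Ick 1.14, while Gcm1 and Tinag had at most 1 UMI. C87436, listed among the neighbours of Acot13, lies on chromosome 6 and was left out here.

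**Figure D4:**
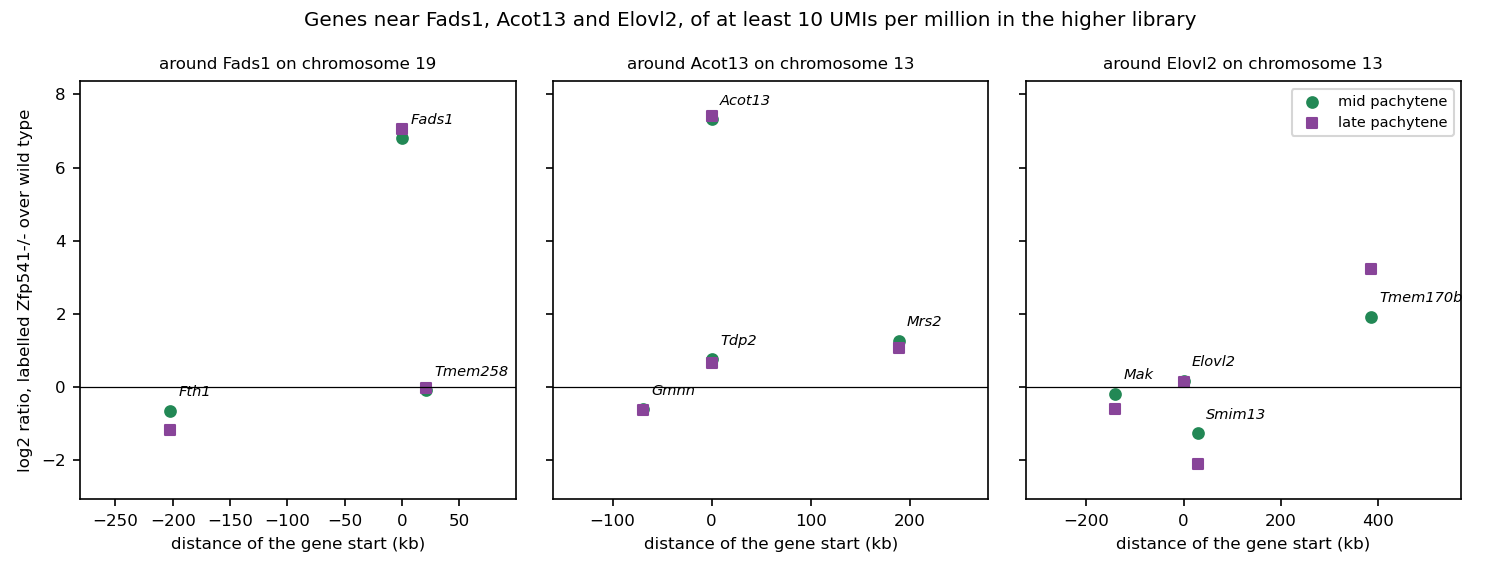
Log2 ratio to WT of the library labelled Zfp541-/- (y) against the distance of each gene's start from that of Fads1, Acot13 or Elovl2 (x, kb), in mid (circles) and late pachytene (squares), for genes that reached 10 CPM in either library. Fads1 (6.80 in mid pachytene) and Acot13 (7.32) stand above the genes plotted beside them, of which Mrs2 at 1.27 has the highest ratio in mid pachytene.

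The wider lipid pathways were described from 15 gene lists, which were chosen with earlier results of these libraries known. Of 172 listed genes, 68 reached 10 CPM in mid pachytene, and 13 (19.1%) were at least 2-fold higher and 11 (16.2%) at least 2-fold lower in the library labelled Zfp541-/-, where 15.0% and 10.6% of all measured genes were. Their median log2 ratio was -0.14 and that of all genes 0.15. In late pachytene 18 of 71 (25.4%) were higher and 13 (18.3%) lower, beside 17.4% and 14.3% of all genes, with a median of -0.14 against 0.11. The shares of all genes also stand beside the counts of the single lists below. With lists chosen in this way, nothing is read from how listed genes compare with all genes. Among genes of at least 50 CPM the mid pachytene counts were 1 higher and 2 lower of 28, where 11.4% and 8.6% of all such genes were.

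Of the enzymes that work beside the elongases and desaturases, the measured genes had log2 ratios between -1.12 and 0.72 in mid pachytene. None of the other elongase genes (Elovl1, Elovl3, Elovl4, Elovl6 and Elovl7) reached 10 CPM in pachytene. Of the other desaturase genes, Degs1, a ceramide desaturase, had a mid pachytene level of 15.0 CPM in WT and 6.95 CPM in the other library, and the other 6 were below 10 CPM. Of 7 genes of the remaining elongation steps, 4 were measured, of which none passed 2-fold in mid pachytene and 1, Hacd1, did in late pachytene. Hacd1, a dehydratase of the elongation cycle, was at 335.9 and 554.9 CPM in mid and 341.3 and 721.6 in late pachytene, with log2 ratios of 0.72 and 1.08. Hacd2 had 0.57 and Hacd3 0.02 in mid pachytene, and Tecr, the final reductase of the cycle, had -0.37. Of the electron donors of the desaturases, none of 4 measured genes passed 2-fold, with log2 ratios of -0.69 for Cyb5a, -0.30 for Cyb5b, -0.55 for Cyb5r3 and 0.28 for Cyb5r4.

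Among the enzymes that load and unload coenzyme A, 2 of 5 measured thioesterase genes were higher and none was lower. Acot3 and Acot5, both peroxisomal thioesterases, had 0 UMIs in WT pachytene and 13.8 and 16.5 CPM in mid pachytene of the library labelled Zfp541-/-. Against 3 WT counts these levels were 44.8-fold and 53.4-fold higher, and the exact intervals of the log2 ratios began at 5.18 and 5.44. In late pachytene the 2 genes were at 24.8 and 30.8 CPM, 65.9-fold and 81.8-fold higher against 3 counts, with intervals from 5.74 and 6.05. Acot5 was among the 10 leading genes of late pachytene cluster 22. Acot3 and Acot5 belong to a family of near-identical neighbouring genes, so how their reads were shared out is uncertain. Acot8 and Them4 had log2 ratios of -0.07 and -0.15. Of the acyl-CoA synthetases that activate fatty acids, Acsl3 had 0.21 and Acsl6, which favours docosahexaenoic acid, had -1.11 in mid pachytene and -1.83 in late pachytene. Peroxisomal oxidation, which shortens the longest chains, had 1 of 5 genes lower in mid pachytene, Acaa1a at 12.8 and 2.50 CPM. Hsd17b4 and Acox3 had log2 ratios of -0.87 and 0.47 there. In late pachytene 2 of 5 were lower, Acaa1a (-3.55) and Hsd17b4 (-1.28), and none was at least 2-fold higher.

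Fatty acid synthesis from acetyl units had genes on both sides, with 2 of 6 measured genes higher and 2 lower in mid pachytene. Acaca and Fasn, which encode the enzymes that make palmitate, were at 6.69 and 7.61 CPM in WT and 27.2 and 32.8 in the library labelled Zfp541-/-. Me1, a source of NADPH, was at 122.5 and 51.7 CPM, and Slc25a1, the mitochondrial citrate carrier, at 32.6 and 9.28. Sterol synthesis had 1 of 9 higher and 2 lower, with log2 ratios of 1.95 for Cyp51, 0.67 for Sqle, -1.59 for Fdps and -3.12 for Pmvk. Of 8 measured regulators of lipid genes, 4 were at least 2-fold higher and none lower, where 15.0% and 10.6% of all measured genes were. Among them were Pparg, a fatty acid receptor, at 0.412 and 15.2 CPM, and Scap, which escorts SREBP proteins, at 0.926 and 21.95 CPM. Both reached 10 CPM only through the library labelled Zfp541-/-. Nr1h2 and Mlx had log2 ratios of -0.58 and -0.45 in mid pachytene. In late pachytene 5 of 8 regulators were higher and none lower, beside 17.4% and 14.3% of all genes. The SREBP genes were below 10 CPM in both libraries, with Srebf1 at 0.72 and 0.902 CPM and Srebf2 at 3.81 and 4.24 CPM in mid pachytene, values given after they were seen.

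Genes that place fatty acids into membranes differed in both directions in mid pachytene, to which the values of this paragraph refer unless late pachytene is named. Of 5 measured acyltransferases, 1 was at least 2-fold higher and none lower, Agpat5 at 4.22 and 131.3 CPM, and Agpat1, Agpat3 and Lpcat3, which favours polyunsaturated chains, had log2 ratios of 0.47, -0.40 and -0.37. Of 5 sphingolipid genes 2 were higher and 2 lower, with Ugt8a at 3.39, St3gal5 at 1.55, B4galnt1 at -2.88 and Degs1 at -1.12. The list of fatty acid oxygenation and lipid peroxide repair had 1 of 3 measured genes lower, Aifm2 at 21.9 and 10.5 CPM. Gpx4, the main lipid peroxide reductase of sperm, had levels of 2467 and 1251 CPM and a log2 ratio of -0.98, and Ptges3 had -0.35. In late pachytene 2 of these 3 genes were at least 2-fold lower, Aifm2 (-1.62) and Gpx4 (-1.01). Of 6 genes of fatty acid binding, 1 was lower, Dbil5, a testis acyl-CoA binding protein, at 342.1 and 87.6 CPM. Fabp9, the testis fatty acid binding protein, was at 5550 and 3159 CPM, and Acbd3 and Acbd6 had -0.02 and 0.16. Mitochondrial oxidation had 1 of 7 higher, Eci1 at 1.54 and 20.0 CPM, and 1 lower, Acadvl at 32.8 and 8.20 CPM. Hadhb and Cpt1c had log2 ratios of 0.83 and -0.65. In late pachytene 3 of 9 genes of mitochondrial oxidation were at least 2-fold higher and 2 lower, and 1 of 5 acyltransferases was higher.

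**Figure D5:**
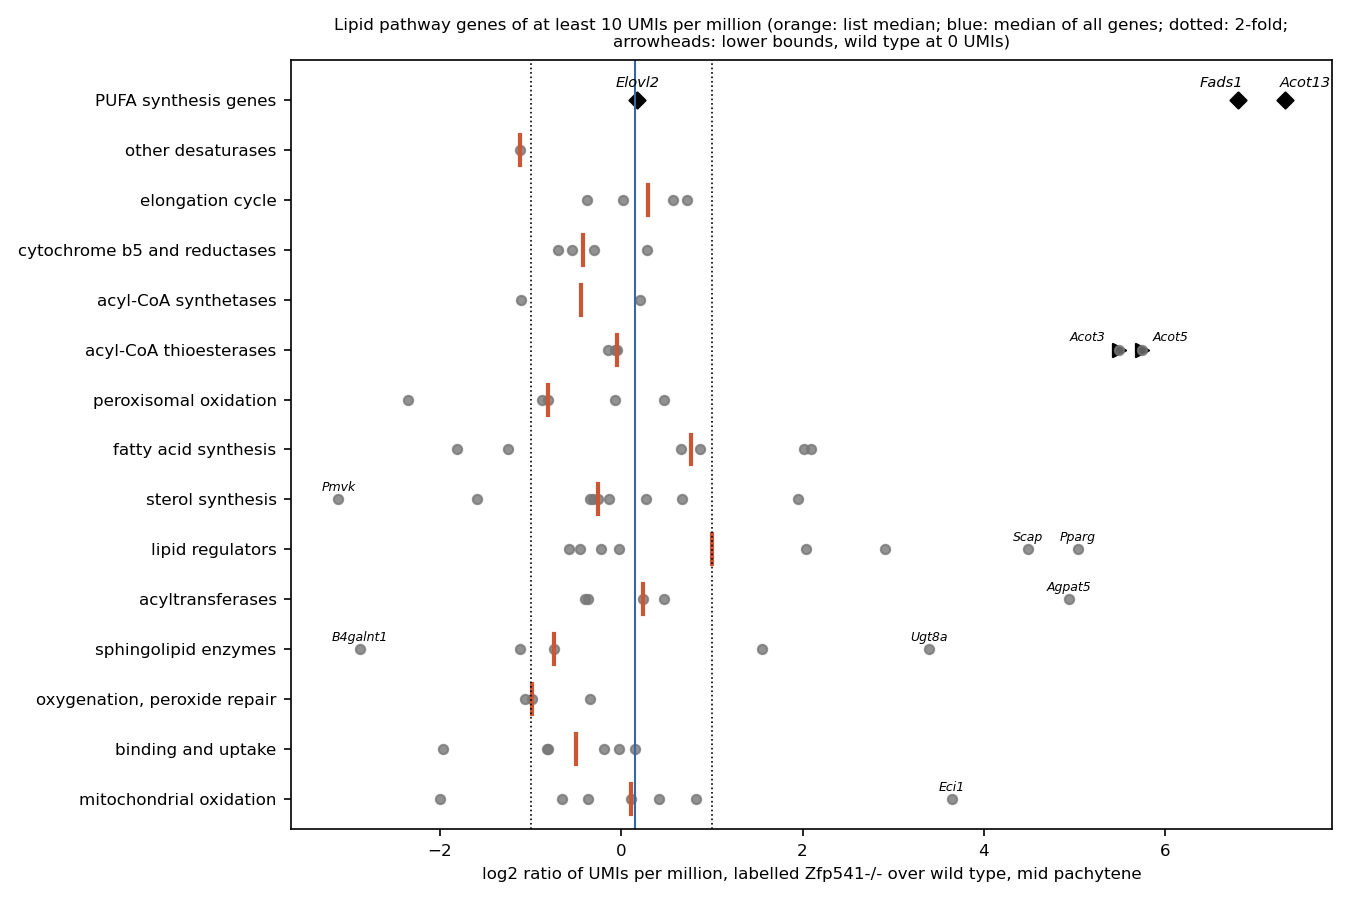
Log2 ratio to WT of the library labelled Zfp541-/- in mid pachytene (x) for the measured polyunsaturated fatty acid (PUFA) synthesis genes (diamonds) and the measured genes of the other lipid lists (points), with list medians in orange, the median of all genes (0.15) in blue, 2-fold as dotted lines and lower bounds as arrowheads. Fads1 and Acot13 lie at 6.80 and 7.32, above those points of the other lists that are not bounds. Acot3 and Acot5, with 0 WT UMIs, are drawn at lower bounds and cannot be ranked against Fads1 and Acot13.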

How the data were processed

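Tetraploid germ cells of adult mouse testis were profiled by droplet single-cell RNA-seq (10x 3' version 3) in 1 WT library and 1 library labelled Zfp541-/-. The authors used Cell Ranger 3.1.0, the mm10 genome and Seurat 3.2.0, per the submitters' processing notes. The deposited matrices hold whole-number UMI counts per gene and barcode, not normalised, with at least 500 UMIs per barcode. The authors' cell table gives each cell's cluster and stage, its percent of mitochondrial UMIs and its pseudotime score, per the file headers. Annotated cells had at most 10% mitochondrial UMIs. The libraries shared 17 barcodes. No doublet caller was run, and the sources used here do not state how the authors treated doublets.

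For each stage or cluster of a library, counts were added up over cells and scaled to CPM with Python 3.11.15, numpy 2.4.6, scipy 1.17.1 and pandas 2.3.3. Log2 ratios added 0.5 counts to each sum and were read for genes that reached 10 CPM in either library and for groups of at least 50 cells. A count of 0 was read as allowing 3 counts. Folds set against those 3 counts leave out the counting error of the other library, so the exact intervals reach lower. The ratio code was tested on simulated data. A 3' kit gives 1 tag per molecule, so levels were not divided by length.

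The members and lists were chosen with earlier results of these data known. All 6 members are named, then up to 2 highest and 2 lowest measured genes per list in mid pachytene, all listed neighbours on the same chromosome and the 3 most alike genes per member. Alternatives covered depth, scaling, cluster weight, mitochondrial share, shared barcodes, deep cells, pseudotime, pseudocount and filters. Barcodes outside the authors' annotation were not analysed here. One gene of the lists is not reported here and was left out of their counts.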

Additional observations from a re-analysis of the deposited data

How the results depend on the processing

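No paired analysis was possible because each genotype has 1 library, so the groups share no replicate numbers beyond that single one, and leaving out a replicate was not possible either. Fads1 and Acot13 were the 2 genes at least 2-fold higher in mid pachytene, late pachytene and clusters 12 and 16 under each alternative, except that a filter of 50 CPM left 0 of 1 measured gene higher in cluster 12 and 1 of 2 in cluster 16, since levels there are lower. Over the alternatives the log2 ratio of Fads1 ran from 6.66 to 6.97 in mid and 6.48 to 7.50 in late pachytene, and that of Acot13 from 7.07 to 7.32 and 7.27 to 8.25. In early pachytene they were less steady, with 1.84 to 3.41 in cluster 12 and 3.90 to 5.03 in cluster 16 for Fads1, and 1.54 to 2.80 and 3.74 to 4.99 for Acot13. Elovl2 ran from 0.10 to 0.31 in mid and from -0.12 to 0.19 in late pachytene, with the other sign under clusters at equal weight and pseudotime bins at equal weight, and in cluster 16 from -0.11 to 0.15, with the other sign under 4 alternatives. With the filter of 50 CPM, the lipid lists had 1 gene higher and 2 lower of 28 in mid pachytene and 3 higher and 3 lower of 23 in late pachytene, from fewer genes tested, where 11.4% and 8.6% of all such genes in mid and 13.8% and 11.4% in late pachytene were. Thinning to 3000 UMIs lowered the shares of cells with a UMI, by its construction. It also left out cells under 3000 UMIs, and kept 33 of 75 WT cells in cluster 12 and 109 of 155 in cluster 16. In mid pachytene the thinned shares were 0.167% (WT) and 19.4% (labelled Zfp541-/-) for Fads1, 0.50% and 51.2% for Acot13, and 14.8% and 18.3% for Elovl2. In late pachytene they were 22.6% for Fads1 in the library labelled Zfp541-/-, 0.242% and 60.1% for Acot13, and 19.8% and 22.3% for Elovl2. Cluster weights do not apply within 1 cluster, and cluster 12 had 0 usable pseudotime bins, so these were not run there. The limit on all results is the single library per genotype.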

Other observations

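The other genes of the Acot1 to Acot6 family were below 10 CPM and were looked up after the values of Acot3 and Acot5 were seen. In late pachytene they had more UMIs in the library labelled Zfp541-/-. Acot1 had 1 WT UMI against 382 in the library labelled Zfp541-/-, Acot2 had 0 against 86, Acot4 had 2 against 138 and Acot6 had 0 against 190. These are raw counts out of 7978955 WT and 46868451 other UMIs, so part of each gap is depth, and no ratio is read at such levels. Acot7, a thioesterase gene outside that family, was at 522.5 and 474.9 CPM. Mlxipl, a carbohydrate-responsive regulator of fatty acid synthesis genes, had 0 WT UMIs against 600 in late pachytene, at least 34.0-fold higher, and Insig1, which retains SREBP proteins, was at 1.38 and 12.5 CPM.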
